A study of Mus musculus with 8 samples.

Results

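The caveolin and cavin genes build caveolae, and 7 of them were examined: the caveolins Cav1 and Cav2, the cavins Cavin1, Cavin2 and Cavin3, the caveolar neck ATPase gene Ehd2 and the membrane-curving F-BAR gene Pacsin2. They were chosen by name, from what their proteins do, and all 7 were found among the 46603 genes of the count table and passed the expression filter. RNA of sorted mouse liver cells was sequenced in 8 libraries, an LLRC (liver label-retaining cell) and a non-LRC library from each of 4 mice named JV602, JV621, JV624 and JV6314. The comparison asks how biliary cells that kept a nuclear label since early life differ from those that lost it.

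All the mice were R26rtTA het/H2B-EGFP het, with the reverse transactivator expressed from the ubiquitously active Rosa26 locus, on a mixed C57BL/6 and CBA background. All of them received doxycycline from birth to postnatal day 5, which switches on the histone-EGFP fusion, and their cells were taken at 8 weeks of age. LLRCs were sorted as EGFP+EpCAM+CD45- cells and non-LRC cells as EGFP-EpCAM+CD45- cells after beads had removed CD45+ cells. The study notes that hematopoietic cells of these mice make the fusion without doxycycline, which limits the label as a mark of slow division in any such cells that stay. All 8 libraries analysed here came from animals given doxycycline.

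Caveolae are small flask-shaped pits of the plasma membrane, rich in cholesterol, that buffer membrane tension and take part in endocytosis, lipid handling and signalling. Caveolin proteins insert into the membrane as oligomers, CAV1 being needed for caveolae outside muscle while CAV2 joins it in hetero-oligomers, and cavin proteins form a coat around the caveolin scaffold. Endothelial cells, adipocytes and muscle cells are known for many caveolae, hepatocytes for few.

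Cav1 and Cav2 are neighbours on chromosome 6, with 17219 bases between the end of Cav2 and the start of Cav1, and both are read in the same direction. The 250 bases before the RefSeq start of these genes are printed because they had the highest mean levels and lie side by side, and those of Cavin2 because it was lower in LLRCs than in non-LRC cells of every mouse. The sequences are RefSeq's, on GRCm38.p6 and 5′ to 3′ on the strand of the gene, all of them the plus strand. Their positions are chr6:17306085-17306334 for Cav1, chr6:17280935-17281184 for Cav2 and chr1:51288876-51289125 for Cavin2. Capitals mark motif letters found on either strand, with no overlap between the marked motifs. The GC box was searched as GGGCGG, the CCAAT box by the letters of its name and the TATA box as TATAAA.
Cav1: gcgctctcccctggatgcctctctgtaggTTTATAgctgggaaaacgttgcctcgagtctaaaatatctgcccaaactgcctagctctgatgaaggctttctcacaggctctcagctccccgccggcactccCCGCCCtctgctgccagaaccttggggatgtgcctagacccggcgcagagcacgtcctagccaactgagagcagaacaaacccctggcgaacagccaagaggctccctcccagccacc
Cav2: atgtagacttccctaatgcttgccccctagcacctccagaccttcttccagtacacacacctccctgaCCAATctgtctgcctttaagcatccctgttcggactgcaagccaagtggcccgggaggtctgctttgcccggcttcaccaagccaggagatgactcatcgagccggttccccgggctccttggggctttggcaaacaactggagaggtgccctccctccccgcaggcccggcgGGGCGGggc
Cavin2: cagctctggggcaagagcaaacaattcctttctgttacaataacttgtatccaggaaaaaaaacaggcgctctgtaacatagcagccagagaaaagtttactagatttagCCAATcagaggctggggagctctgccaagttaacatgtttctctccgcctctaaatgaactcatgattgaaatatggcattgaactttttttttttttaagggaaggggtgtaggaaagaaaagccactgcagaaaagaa

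The Cavin2 window was the poorest in G and C of the 6 members that had a RefSeq window, at 40.4% against 58% to 67.6% in the other members. It held a CCAAT box and no GC box, the Cav1 window held 1 GC box and 1 TATA box, and the Cav2 window held 1 GC box and 1 CCAAT box. Of the 6 windows, 5 held a GC box and 5 held a CCAAT box, while of 32817 RefSeq windows of the same length 32.7% held a GC box, 33.8% a CCAAT box and 12.4% a TATA box. A CArG box, the motif of serum response factor, was found in 0 of the 6 and in 1.47% of all windows. These matches describe letters in a window and name no bound factor. Cavin3 was the member without a window.

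Library totals were between 7860021 and 9851819 counts in LLRCs and between 4670132 and 8056103 in non-LRC cells, so that 3 counts were worth 0.291 to 0.626 CPM (reads of a gene scaled to a common library size by TMM). The Epcam transcript of the sorted surface protein stood at 583 and 551 CPM in the groups' means. The summed level of 14 cholangiocyte markers was 114102 to 221064 CPM in LLRC libraries and 65748 to 161486 CPM in non-LRC libraries, most of it from Spp1. The defining T and B cell markers Cd3e and Cd79a were at 0 in all libraries. Of 19 tested endothelial markers, 18 had an unadjusted p below 0.05 and were lower in LLRCs. The median of their log2 fold changes was -3.72, with a summed level of 37.3 to 88.9 CPM in LLRCs against 285 to 1273 CPM in non-LRC cells. The study had picked 11 of the 22 markers of that list on these libraries, so the list is not independent evidence of its direction. Endothelial cells are rich in caveolae, and the values of these markers are therefore given again beside the members. Their part in the members' differences was not tested. In bulk RNA, fewer cells of a type and less RNA per cell cannot be told apart.

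Across the 7 members, Cav1 and Pacsin2 had close mean levels in LLRCs and non-LRC cells, and Cav2 was 1.43-fold higher in LLRCs in the fit. Cavin3 and Cavin2 were lower in LLRCs in 4 of 4 mice, by 3.77-fold and 2.46-fold in the same fit. None of the 7 passed the threshold. In edgeR's quasi-likelihood test with Benjamini-Hochberg adjustment, 0 of 13605 genes (0%) passed an adjusted threshold of 0.05, while an unadjusted p below 0.05 was met by 702 (5.16%). On the same genes limma-voom called 0. On other sets of genes, DESeq2 called 265 of 16612, Cavin3 among them, and edgeR's exact test without a filter called 115 of 27591. With the mouse as a replicate block the quasi-likelihood test again called 0 genes. Of the 7 members, 2 had an unadjusted p below 0.05, both of them lower in LLRCs, as were 485 of the 702 genes at that p, while under limma-voom 315 genes were lower and 576 higher at such a p. The members' median log2 fold change was -0.09, against -0.01 over all genes tested.

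**Figure D1:**
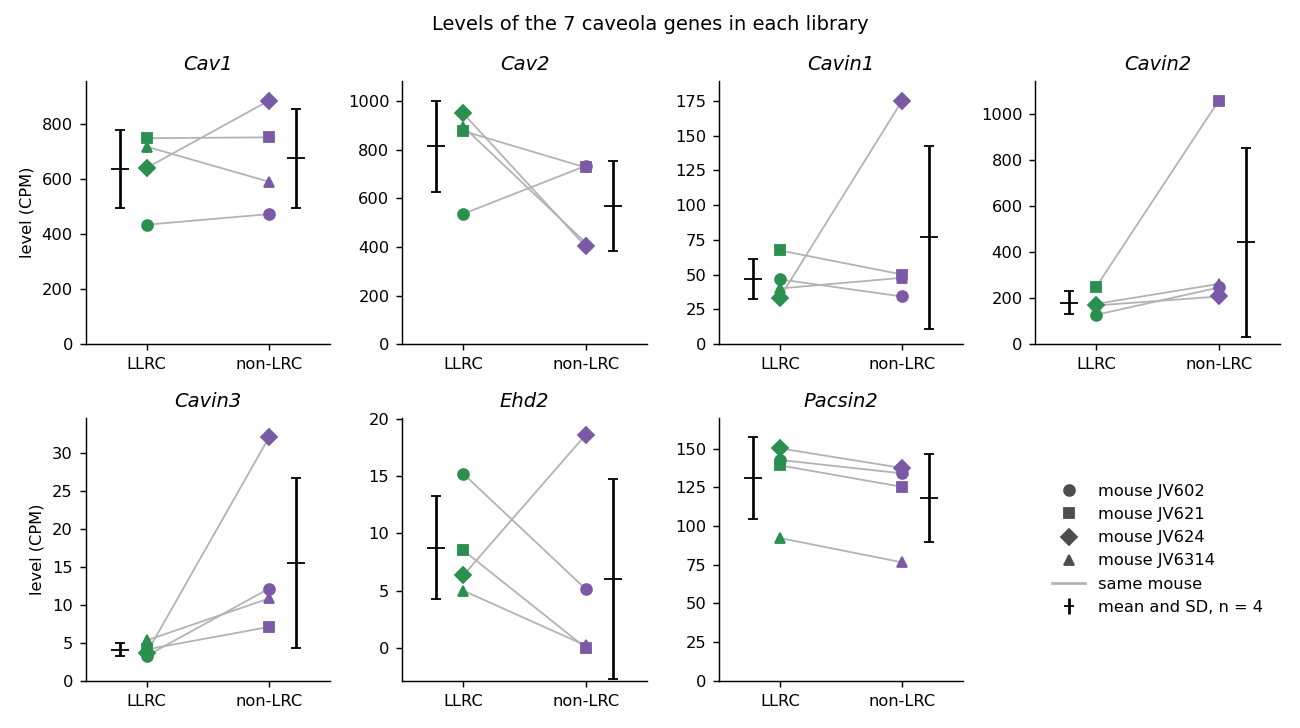
Level of each of the 7 caveola genes in CPM (y axis, a separate linear scale for each gene) in the LLRC and non-LRC libraries, with grey lines joining the libraries of a mouse and bars for mean and SD (n = 4). Cavin3 is the gene whose groups do not overlap, and single non-LRC libraries stand far above the other libraries for Cavin1 (JV624, 175 CPM) and Cavin2 (JV621, 1060 CPM).

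The caveolins were read at between 403 and 950 CPM in every library of both groups, and had the highest mean levels of the members, though Cavin2 lay above both in the non-LRC library of JV621. Cav1 (ENSMUSG00000007655, chromosome 6, 17306335 to 17341452 of GRCm38, plus strand), the structural protein of the caveolar membrane, stood at 434, 749, 641 and 718 CPM in LLRCs of the 4 mice, in the order JV602, JV621, JV624 and JV6314 that is kept throughout. In their non-LRC libraries it stood at 473, 752, 886 and 590 CPM. The groups overlapped almost fully, and JV602 was the lowest mouse in both. Their means were 635 ± 141 CPM for LLRCs against 675 ± 181 CPM (SD, n = 4 each). LLRC over non-LRC gave a log2 fold change of -0.09 (standard error 0.29, 95% interval -0.74 to 0.57; adjusted p = 0.9999 by the quasi-likelihood test of edgeR). Its sign turned when the LLRC library of JV602 was left out (0.07) or the non-LRC library of JV624 (0.06). An exact two-sided permutation test of the log2 level over the 70 arrangements of the 8 libraries gave p = 0.743.

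Cav2 (ENSMUSG00000000058, chromosome 6, 17281185 to 17289115, plus strand), the caveolin that depends on CAV1 to reach the cell surface, stood at 537, 878, 950 and 896 CPM in LLRCs. In non-LRC cells it stood at 734, 728, 403 and 418 CPM. LLRC levels were the higher of the pair in 3 of the 4 mice, with JV602 going the other way, and the ranges overlapped. The log2 difference within a mouse was -0.45, 0.27, 1.24 and 1.10 in the order of the mice above. The means were 815 ± 188 CPM and 571 ± 185 CPM (SD, n = 4 each), a log2 fold change of 0.51 (standard error 0.32, 95% interval -0.20 to 1.23) that did not pass the threshold. The exact two-sided permutation p was 0.171.

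The balance of the caveolin transcripts varied between mice. Cav1 over Cav2, a ratio within a library that no scaling of libraries can move, was 0.809, 0.853, 0.675 and 0.801 in LLRCs, against 0.644, 1.03, 2.20 and 1.41. The LLRC ratios lay close together, all below 1, and the non-LRC ratios spanned them. The mean log2 ratio was lower in LLRCs by 0.62 (3 of 4 mice; exact permutation p = 0.200, 0.514 after Benjamini-Hochberg adjustment over 4 ratios), a difference within the spread of the libraries. It was -0.33 without the non-LRC library of JV624 and -0.92 without that of JV602.

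The cavins coat the caveolin scaffold from the cytosol. Between non-LRC libraries their transcripts varied more than the caveolins, with coefficients of variation of 72.2% to 92.6% against 26.8% and 32.5%. Without JV624 the value for Cavin1 was 19.3%, and without JV621 that for Cavin2 was 11.8%. In LLRC libraries Cavin3, at 21.5%, lay below Cav1 (22.3%) and Cav2 (23.1%). Cavin1 (ENSMUSG00000004044, chromosome 11, 100956733 to 100970887, minus strand), the cavin that caveolae cannot form without, stood at 46.6, 67.4, 33.5 and 40.1 CPM in LLRCs. In non-LRC cells it stood at 34.3, 50.1, 175 and 47.8 CPM. The non-LRC library of JV624 lay far above the other 7, which overlapped between the groups. The means were 46.9 ± 14.7 CPM and 76.8 ± 65.9 CPM (SD, n = 4 each), and the log2 fold change of -0.71 (standard error 0.53, 95% interval -1.92 to 0.49; exact permutation p = 0.543 on the log2 level) became 0.08 without that library. The same library was the highest of the 8 for all 5 mesothelial markers read, Msln among them at 193 CPM against 4.56 to 65.5 CPM elsewhere. It was also the highest for 7 of 10 hepatocyte markers and for 8 of 17 stellate, fibroblast and smooth muscle markers. The non-LRC library of JV6314 was likewise the highest for 8 of those 17. What part these have in its Cavin1 level was not tested.

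Cavin2 (ENSMUSG00000045954, chromosome 1, 51289126 to 51302960, plus strand), a cavin that binds phosphatidylserine and shapes the caveolar membrane, stood at 128, 251, 169 and 175 CPM in LLRCs. In non-LRC cells it stood at 247, 1060, 208 and 262 CPM. It was lower in LLRCs in each mouse, by -0.94, -2.08, -0.30 and -0.58 on the log2 scale, but the LLRC library of JV621 lay above 2 of the non-LRC libraries. The fitted log2 fold change was -1.30 (standard error 0.55, 95% interval -2.54 to -0.05) with an unadjusted p of 0.0424 and an adjusted p of 0.941 by the quasi-likelihood test of edgeR. Without the non-LRC library of JV621 it was -0.39, so most of the size rested on that library, and DESeq2 gave the gene no adjusted p. The exact two-sided permutation p was 0.0857. That same library had the highest sum of the 22 endothelial markers, at 1273 CPM, of which S1pr1 and Sox17 (named after its value was seen) gave 245 and 194 CPM. It was the highest library for 12 of the 22, while 9, Kdr among them, were highest in the non-LRC library of JV6314 and 1 in that of JV624.

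Cavin3 (ENSMUSG00000037060, chromosome 7, 105480083 to 105482300, minus strand), a cavin known as a binding partner of protein kinase C delta, was the least abundant of the 3 cavins among the members. LLRC libraries held 34, 35, 25 and 48 counts of it, and non-LRC libraries 97, 34, 203 and 55. As levels these were 3.30, 4.14, 3.68 and 5.33 CPM against 12.1, 7.10, 32.0 and 10.9 CPM. Every LLRC library lay below every non-LRC library, with the non-LRC library of JV624 the highest. The means were 4.11 ± 0.88 CPM and 15.5 ± 11.2 CPM (SD, n = 4 each). The log2 fold change was -1.91 (standard error 0.56, 95% interval -3.17 to -0.66), with an unadjusted p of 0.00715, and an adjusted p of 0.515 by edgeR against 0.0294 by DESeq2. Leaving out the non-LRC library of JV624 gave -1.29.

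The exact two-sided permutation p for Cavin3 was 0.029, the smallest that 4 libraries against 4 allow. It is not adjusted, and it was 1 of 7 such tests, 1 for each member. Paired by mouse, its log2 differences were -1.74, -0.71, -2.96 and -0.96, all in 1 direction, which 2 of 16 sign patterns over 4 mice give, the smallest share that a sign-flip test with the mouse as replicate block allows. The annotation places 22.5% of the exon bases of Cavin3 under Gm45667 on the opposite strand. Counting ignored strand, so reads from the shared bases cannot be told apart by strand.

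Of the 7 members 1, Cavin3, had all LLRC libraries below all non-LRC libraries, as did 1.91% of all genes tested, and 0 had them all above, as did 2.15%. Lower values in LLRCs in every mouse were seen for 2 members, Cavin2 and Cavin3, and for 5.53% of all genes tested. Higher values in every mouse were seen for 1 member, Pacsin2, and for 7.74% of all genes tested.

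**Figure D2:**
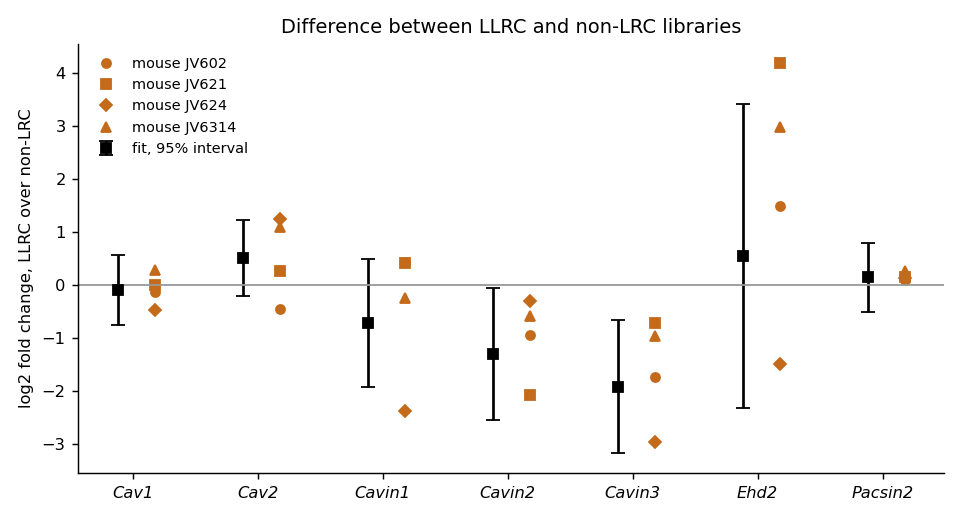
Log2 fold change of LLRC over non-LRC (y axis) for the 7 caveola genes, as black squares with 95% intervals from the quasi-likelihood fit and as coloured points for the difference within each mouse. The intervals of Cavin2 and Cavin3 lie below 0 before adjustment for the number of genes tested, and Pacsin2 has its 4 mice close together.

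The genes that act at the neck and rim of caveolae were unlike each other. Ehd2 (ENSMUSG00000074364, chromosome 7, 15946958 to 15967567, minus strand), whose ATPase assembles at the caveolar neck and holds it at the surface, had 157, 72, 43 and 45 counts in LLRCs. In non-LRC cells it had 41, 0, 118 and 1 counts. The levels were 15.2, 8.52, 6.32 and 5.00 CPM against 5.13, 0, 18.6 and 0.197 CPM, and the 0 of JV621 allows up to 0.626 CPM, for counting error only. All LLRC libraries held the transcript, whereas the non-LRC libraries ranged from none to the highest level of all. The non-LRC libraries of JV621 and JV6314, with 0 and 1 counts, also had the fewest genes detected, 14234 and 16042 against 18356 to 20430 elsewhere. What part this has in their Ehd2 level was not tested. The log2 fold change of 0.54 (standard error 1.27, 95% interval -2.32 to 3.41; exact permutation p = 0.314 on the log2 level) did not settle its size or its sign. It moved to 2.25 without the non-LRC library of JV624, the highest library for Cavin1 and Cavin3 too. Without the LLRC library of JV602, or the non-LRC library of JV621 or JV6314, it was between 0.14 and 0.15, and with the mouse as a replicate block it was 2.46 (adjusted p = 1 by edgeR).

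Pacsin2 (ENSMUSG00000016664, chromosome 15, 83375607 to 83464606, minus strand), an F-BAR protein that bends membrane at caveolae and endosomes, stood at 143, 139, 150 and 92.3 CPM in LLRCs. In non-LRC cells it stood at 134, 125, 137 and 76.6 CPM. JV6314 was low in both groups, and LLRCs were slightly the higher of the pair in 4 of 4 mice. The log2 differences within a mouse were 0.09, 0.15, 0.13 and 0.27 (mean 0.16, SD 0.08). The means were 131 ± 26.3 CPM and 118 ± 28.3 CPM (SD, n = 4 each), a fitted log2 difference of 0.15 (standard error 0.29, 95% interval -0.50 to 0.79). The exact two-sided permutation p was 0.457, the fitted value fell to -0.01 without the non-LRC library of JV6314, and between groups the difference was within the spread of the libraries. Within mice all 4 differences had 1 sign, which 2 of 16 sign patterns give, so that a sign-flip test over 4 mice cannot pass the threshold.

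Other ratios between members within a library also overlapped between the groups. Cav1 over Cavin1 differed by 0.36 on the log2 scale, Cav1 over Pacsin2 by -0.24 and Ehd2 over Pacsin2 by 1.63. Their exact permutation p values were 0.514, 0.600 and 0.257, and after Benjamini-Hochberg adjustment over 4 ratios 0.600, 0.600 and 0.514. Without the non-LRC library of JV624, Cav1 over Cavin1 was 0.0054 and Ehd2 over Pacsin2 2.53, and leaving out any 1 library gave 0.0054 to 0.55 for the former, 0.82 to 2.53 for the latter (lowest without non-LRC JV621) and -0.47 to -0.016 for Cav1 over Pacsin2 (nearest 0 without LLRC JV602, farthest without non-LRC JV602 or LLRC JV6314). Ehd2 over Pacsin2 had the widest spread, with log2 ratios of up to -2.85 in non-LRC cells and a lowest value, in the library with 0 counts of Ehd2, that the pseudocount of 0.5 CPM set. With a pseudocount of 0.1 CPM its difference was 2.47 and with 1 CPM 1.23.

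Between-gene levels were set side by side per kilobase of exon. In LLRCs the order of mean level per kilobase was Cav2 (244 CPM per kilobase), Cav1 (185), Cavin2 (59.2), Pacsin2 (26.7), Cavin1 (13.1), Cavin3 (2.47) and Ehd2 (1.71). Cav2 lay above Cav1 in 4 of 4 LLRC libraries although their ranges overlapped, the ranges of Cavin3 and Ehd2 also overlapped, and the other neighbours in this order were apart. In non-LRC cells the order was Cav1 (196 CPM per kilobase), Cav2 (171), Cavin2 (145), Pacsin2 (24.1), Cavin1 (21.4), Cavin3 (9.35) and Ehd2 (1.17). There the ranges of Cavin2 and Pacsin2, and those of Cavin3 and Ehd2, were apart, and the other neighbours overlapped. In both groups the caveolins thus lay well above Cavin1. As a ratio of CPM with 0.5 CPM added to each level, Cav1 over Cavin1 was 9.23 to 18.9 in LLRC libraries. In non-LRC libraries the same ratio was 5.04 to 14.9.

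**Figure D3:**
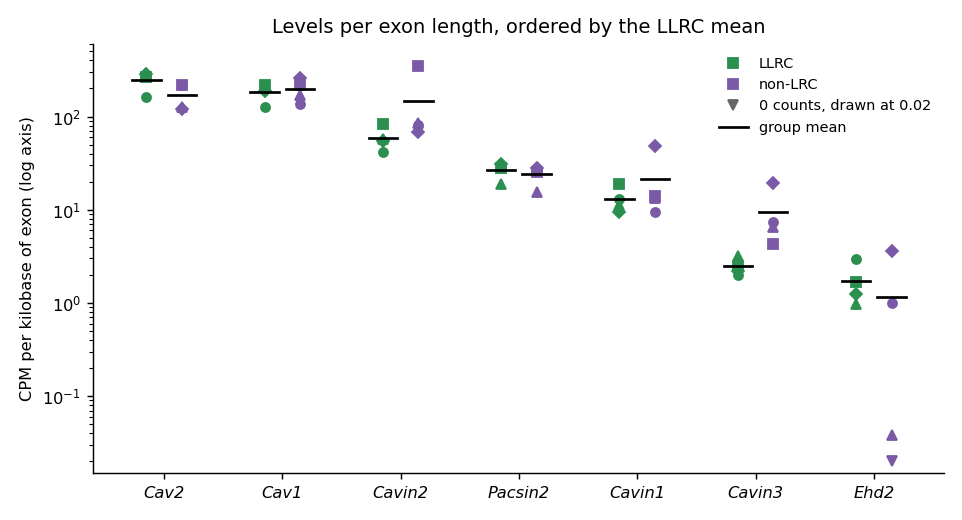
Level of each member in CPM per kilobase of exon (log y axis) in each LLRC and non-LRC library, with black bars at group means and genes ordered by the LLRC mean. The caveolins lie highest and Ehd2 lowest in both groups, with means from 1.71 to 244 in LLRCs and from 1.17 to 196 in non-LRC cells, and the triangle pointing down marks the library with 0 counts of Ehd2.

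The non-LRC libraries were the more uneven group for each of the 7 members, as they were for 82.5% of all genes tested. The coefficient of variation of the level was 20.0% to 51.8% in LLRCs against 23.9% to 146%, widest for Ehd2 in both. For Cavin2 it was 28.3% against 92.6% and for Cavin3 21.5% against 72.2%. This difference in spread was not tested, and for 4 members it turned when 1 non-LRC library was left out, a setting chosen after seeing the data. The non-LRC value became 11.8% for Cavin2 without JV621, 19.3% for Cavin1 without JV624, 19.9% for Cav1 without JV602 and 4.75% for Pacsin2 without JV6314, all below the LLRC value of the gene. For Cavin3 it became 26.1% without JV624.

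The members were set beside the endothelial markers within each library. The summed level of the 7 members was 1307 to 2097 CPM in LLRCs against 1405 to 2722 CPM in the other group, with overlapping ranges. With 0.5 CPM added to each sum, the members' sum was 34.6, 23.4, 36.0 and 36.4 times the summed endothelial markers in the LLRC libraries, mouse by mouse. In the non-LRC libraries it was, with the same addition, 5.75, 2.14, 2.84 and 1.67 times that sum. All LLRC ratios lay above all non-LRC ratios. The mean log2 ratio was 5.00 ± 0.30 and 1.47 ± 0.77 (SD, n = 4 each), a difference of 3.54 seen in 4 of 4 mice, with an exact two-sided permutation p of 0.029 (the smallest possible) and 3.30 to 3.89 when any 1 library was left out. Of the 22 endothelial markers 11 came from the study's own choice on these libraries, so the difference describes the size of the gap and is no independent evidence. Endothelial markers such as Kdr (3.90 to 7.66 CPM in LLRCs, 20.4 to 123 CPM in non-LRC cells) and Eng (1.65 to 9.23 against 28.3 to 114 CPM) were lower in every LLRC library than in every non-LRC library.

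**Figure D4:**
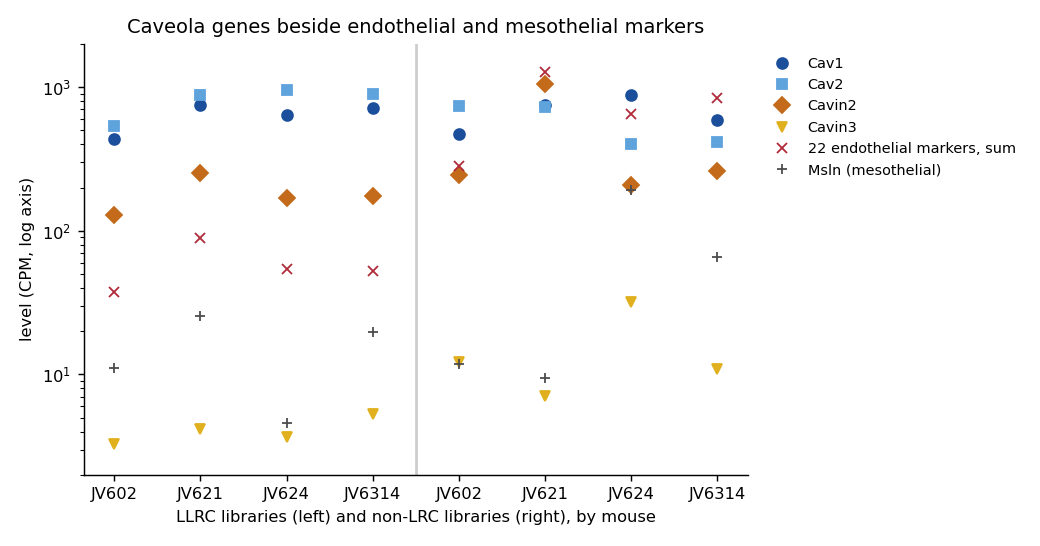
Level in CPM (log y axis) of Cav1, Cav2, Cavin2 and Cavin3, of the sum of 22 endothelial markers and of the mesothelial marker Msln in each library, LLRC libraries on the left and non-LRC libraries on the right. The endothelial sum is 37.3 to 88.9 CPM on the left and 285 to 1273 CPM on the right, and Cav1 is 434 to 749 CPM on the left and 473 to 886 CPM on the right.

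Markers of other cell types were also counted at an unadjusted p below 0.05 in the quasi-likelihood test, which 5.16% of all genes tested met. Of 10 tested stellate, fibroblast and smooth muscle markers 4 had an unadjusted p below 0.05 and were lower in LLRCs, yet their summed level overlapped (2480 to 9959 against 3537 to 9381 CPM), most of it from Rgs5. Of 5 mesothelial markers 1, Msln, was lower at an unadjusted p below 0.05. Their sums were 607 to 1215 against 921 to 2637 CPM, most of it from Gpm6a. Of 10 hepatocyte markers 4 were lower in LLRCs at that p, with sums of 3444 to 4252 against 2456 to 6823 CPM. The 11 hematopoietic markers summed to 16.03 to 33.8 against 21.5 to 40.7 CPM, 1 of the 3 tested having an unadjusted p below 0.05 (Ptprc, higher in LLRCs). Of the 14 cholangiocyte markers 1, Cftr, was higher at that p (log2 fold change 1.43; chosen for mention after its value was seen), and 0 were lower. What part of a member's difference goes with any of these cell types was not tested.

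Paralogs and partners of the caveolar proteins were read from a list of 19 genes. Of these, 14 were tested, 3 had an unadjusted p below 0.05, all 3 lower in LLRCs, and 0 passed the adjusted threshold in edgeR's quasi-likelihood test. Of all genes tested, 5.16% had such an unadjusted p. The list's median log2 fold change was -0.15. The 5 genes that did not pass the filter were Cav3, the muscle caveolin, at 0 counts in all 8 libraries, and Cavin4, Pacsin1, Dnm1 and Nos3, which are named here after their values were seen. Plvap, which forms the diaphragm of endothelial caveolae, stood at 3.59, 4.49, 2.50 and 0.999 CPM in LLRCs, against 25.9, 61.8, 110 and 26.6 CPM. Its log2 fold change was -4.27 (standard error 0.68), with an adjusted p of 0.0932 in the edgeR test.

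Ehd3, a paralog of Ehd2 that works on recycling endosomes, stood at 12.2, 19.8, 23.5 and 18.4 CPM in LLRCs, against 77.6, 499, 168 and 273 CPM. The groups were far apart, by a log2 difference of -3.78 (standard error 0.57), with an adjusted p of 0.0809 in the edgeR test, which became 0.0378 without the non-LRC library of JV602. The fatty acid receptor gene Cd36 stood at 79.5, 27.3, 36.3 and 16.2 CPM in LLRCs, against 194, 722, 102 and 135 CPM (log2 fold change -2.85, standard error 0.74, adjusted p = 0.369 by edgeR), and its log2 fold change was -1.84 without the non-LRC library of JV621. These 3 genes had all LLRC libraries below all non-LRC libraries, as did 1.91% of all genes tested. The study had picked Ehd3 and Plvap on the same libraries. The part of endothelial RNA in these 3 differences was not tested. The flotillin gene Flot2, which marks membrane microdomains of another kind, showed a difference of -0.15 on the log2 scale (standard error 0.40), with means of 39.3 ± 20.5 and 43.5 ± 5.90 CPM (SD, n = 4 each), and its sign turned (0.09) without the LLRC library of JV6314.

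Clathrin coats are the other main endocytic coat, and 25 of their genes were read for contrast. Of the 21 tested, 0 passed the adjusted threshold, and the median log2 fold change was -0.04. An unadjusted p below 0.05 was met by 2 of them, both lower in LLRCs, and by 5.16% of all genes tested. The 2 were the adaptor gene Dab2, at 28.8 ± 10.1 against 73.5 ± 35.8 CPM, and the scaffold gene Itsn1, at 5.68 ± 1.51 against 13.6 ± 5.81 CPM (SD, n = 4 each). The most abundant of the coat per kilobase, the heavy chain Cltc, the light chain Clta and the adaptor Eps15, had log2 fold changes of -0.14, 0.13 and 0.10, with standard errors of 0.38, 0.29 and 0.34. The signs of these 3 turned in some settings that left out a library.

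**Figure D5:**
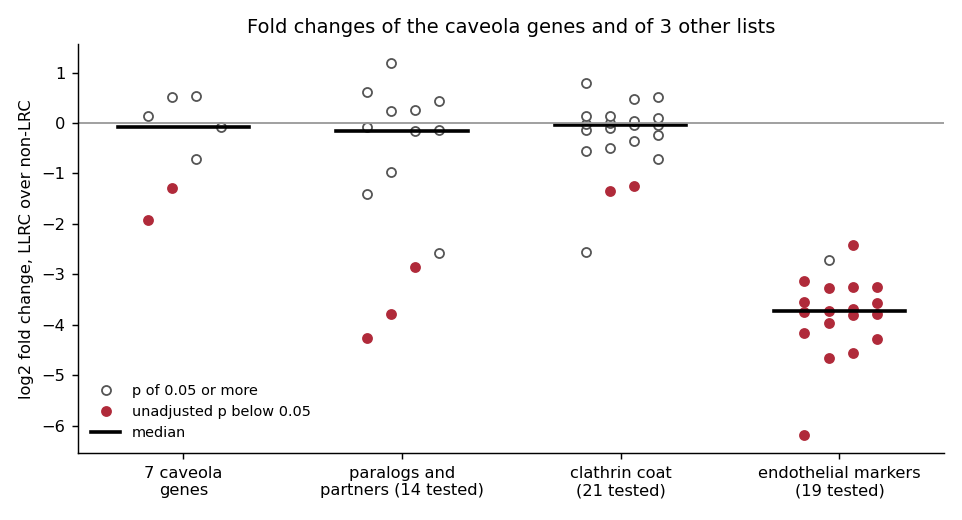
Log2 fold change of LLRC over non-LRC (y axis) for each tested gene of the caveola members, the paralogs and partners, the clathrin coat and the endothelial markers, filled where the unadjusted p was below 0.05, with a black bar at the list median. The medians are -0.09, -0.15, -0.04 and -3.72.

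With the members left out of the ranking, the 5 genes whose pattern over the 8 libraries was most like the mean of Cav1, Cav2 and Cavin1 were Ezr, Pin4, Hspe1-ps5, Trmu and Ppp1r11. Likeness was the root mean square difference of log2 CPM centred on each gene's mean, which was 0.09 for Ezr, the gene of the membrane-to-actin linker ezrin, and 0.14 to 0.15 for the other 4, against a median of 0.76 over the genes tested. Among the members it was 0.13 for Cav1, 0.37 for Pacsin2, 0.53 for Cav2, 0.53 for Cavin1, 0.85 for Cavin2, 0.92 for Cavin3 and 1.76 for Ehd2, and Cav1, Cav2 and Cavin1 were part of the mean they were measured against. Cav1, the member nearest to that mean, had an SD of 0.33 on the log2 scale over the 8 libraries. A gene that hardly varied would thus also score below the median of 0.76. How near the closest of all genes tested would lie by chance was not tested. Ezr stood at 136 ± 27.3 against 128 ± 33.4 CPM (SD, n = 4 each). Hspe1-ps5 is a pseudogene that may share reads with Hspe1, and its likeness is uncertain.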

How the data were processed

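RNA of LLRC and non-LRC cells from 4 mice was sequenced in 8 libraries. The authors made the counts with HTSeq (union mode, exons, without strand) on GRCm38.p4 with the Ensembl annotation, and deposited raw counts per gene for 46603 genes, not normalized. The aligner is not given in the sources used here. The deposited edgeR 3.2.4 comparison (fold changes, p-values) was not used.

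Counts were scaled by TMM and tested with edgeR 4.0.16 (quasi-likelihood, group only, default filterByExpr, Benjamini-Hochberg over 13605 genes, threshold 0.05) in R 4.3.3, with DESeq2 1.42.0 and limma 3.58.1 as alternatives. Single values were compared as log2(CPM + 0.5) by exact permutation of libraries, which 4 against 4 limits to p = 0.029. Depth was 4670132 to 9851819 counts. Symbols, positions and exon lengths came from GENCODE M21 (GRCm38), matching 46091 identifiers. The tests were checked on simulated data. Labels give each mouse's name, so its libraries pair. Deviations from group means correlated at 0.09, 0.08, 0.00 and 0.18 within mice, and the replicate block called 0 genes. P-values measure the spread between these libraries.

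The members and gene lists were chosen with earlier results of these data known. Named genes are the 7 members, of each pathway list the genes with an unadjusted p below 0.05 (at most 8) and the 3 most abundant per kilobase, the 3 most abundant of each cell type list with those at 0 throughout, and the 5 most like the mean of Cav1, Cav2 and Cavin1. Muc16 was not matched. Alternatives were other scalings, filters, tests and pseudocounts, the replicate block and each library left out.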

Additional observations from a re-analysis of the deposited data

Results flagged for a closer look

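In 3 of 24 groups of 4 values checked, 1 library lay far from the other libraries of its group. For normally distributed values chance flags about 1 group in 20, and the gene levels were checked as CPM on a linear scale, the ratios on the log2 scale. The non-LRC library of JV624 held 175 CPM of Cavin1, with 88.8% of the group's range between it and the nearest library, or 76.9% on the log2 scale, where it would not have passed Dixon's critical value. The non-LRC library of JV621 held 1060 CPM of Cavin2, with a gap of 93.6% of the range (85.7% on the log2 scale). The log2 ratio of the summed members over the summed endothelial markers was 4.55 in the LLRC library of JV621, below the other LLRC libraries by 88.4% of the range, though still above every non-LRC library.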

How the results depend on the processing

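The number of genes called depended on the test together with the genes tested. It was 0 of 13605 in the quasi-likelihood test, 11 of 27591 without a filter on low counts, 265 of 16612 with DESeq2, 115 of 27591 with edgeR's exact test without a filter and 0 to 6 with 1 library left out, the 6 without the non-LRC library of JV602. Members called numbered 1 with DESeq2 (Cavin3) and 0 in every other setting run, including each library left out. Paralogs and partners called numbered 0 in the quasi-likelihood test, 1 without a filter (Ehd3), 3 with DESeq2, 3 with the exact test (Ehd3, Plvap and Cd36 in both) and 0 to 1 with 1 library left out. Clathrin coat genes called numbered 0 in each setting run. With the mouse as a replicate block the quasi-likelihood test called 0 genes and changed no call. The differences of Cavin3 (mean -1.59 on the log2 scale) and of the members over the endothelial markers (3.54) had an unadjusted exact permutation p of 0.029 between libraries and did not pass a test by sign flips over mice (replicate block), which cannot pass with 4 mice, since 2 of 16 sign patterns are the fewest it can count. The other causes were not tested.

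Signs turned only when 1 library was left out. Over the 8 omissions log2 fold changes ran from -0.23 to 0.065 for Cav1 (above 0 without LLRC JV602 or non-LRC JV624), -0.97 to 0.084 for Cavin1 (without non-LRC JV624), -0.0080 to 0.29 for Pacsin2 (below 0 without non-LRC JV6314), -0.0071 to 0.26 for Clta (without non-LRC JV602), -0.36 to 0.21 for Cltc (above 0 without non-LRC JV621), -0.13 to 0.40 for Eps15 (below 0 without non-LRC JV624) and -0.51 to 0.088 for Flot2 (above 0 without LLRC JV6314). Cavin2 ranged from -1.54 to -0.39 and Cavin3 from -2.14 to -1.29, and the pseudocount changed no sign or call of a member's level or ratio, but at 0.1 and 1 CPM it moved the level difference of Ehd2 from 1.79 to 2.63 and 1.39 on the log2 scale, and that of Ehd2 over Pacsin2 from 1.63 to 2.47 and 1.23. The scalings changed no member's sign. Counting error is largest for Ehd2, with 0 and 1 counts in single libraries, and Cavin3, with 25 to 203, while Cavin1 and Cavin2 spread widely between libraries at higher counts.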
